A study of Mus musculus with 3 samples.

Results

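Described here is a set of 10 genes: 9 transcription factor genes known from the trophectoderm and its descendants (Cdx2, Eomes, Gata3, Gata2, Tfap2c, Tead4, Elf5, Hand1 and Ascl2) and the Wnt ligand gene Wnt7b. They were matched by symbol to the gene identifiers of the count tables, which list 29267 identifiers, and all 10 were found, although Elf5 had no column on 1 of the 3 plates. The cells were mouse embryonic stem cells derived from the blastocyst, of the genotype Mll1fl/fl; Cre-ER TM on a C57BL/6J background, which all groups share. Mll1, now named Kmt2a, encodes a histone H3 lysine 4 methyltransferase. Each of 3 plates, chips whose wells receive single cells, held 3 cell types: Mll1fl/fl control cells, Mll1-/- cells (deleted) and cells under Mll1 inhibition (inhibited). The labels give neither the inhibitor, its dose and time, nor the exons deleted, nor whether the plates held separate cultures, so that a p-value here reflects only how far the plates differ from each other, and that spread may be technical.

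The trophectoderm is the outer layer of the blastocyst and forms the placenta, while embryonic stem cells come from the inner cell mass. In the outer cells TEAD4, working with the coactivator YAP when Hippo signalling is low, activates Cdx2 and Gata3. CDX2 and EOMES then hold the trophectoderm and trophoblast stem cell state together with TFAP2C, GATA3, GATA2 and ELF5, and HAND1 and ASCL2 act in giant cells and in the spongiotrophoblast of the later placenta. Wnt7b encodes a secreted ligand that is needed in the placenta for the fusion of chorion and allantois.

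MLL1 carries a CXXC domain, a zinc finger that binds unmethylated CG dinucleotides, so the sequences upstream of these genes are shown with their CG dinucleotides in capitals. RefSeq promoters on GRCm38.p6 were matched for 6 of the 10 genes (Cdx2, Eomes, Gata3, Gata2, Elf5 and Ascl2). The window holds the 200 bases from 250 to 51 bases before the annotated start, and 4 windows that overlap no annotated exon are printed 5′ to 3′ on the gene's strand. Ascl2 was the member found in most wells and Elf5 the one found in fewest, and Cdx2 and Eomes encode the factors by which the lineage is usually recognised. The Cdx2 window lies at chr5:147307300-147307499 on the minus strand, the Eomes window at chr9:118477939-118478138 on the plus strand, the Elf5 window, that of its second listed start, at chr2:103423818-103424017 on the plus strand, and the Ascl2 window at chr7:142969315-142969514 on the minus strand.
Cdx2: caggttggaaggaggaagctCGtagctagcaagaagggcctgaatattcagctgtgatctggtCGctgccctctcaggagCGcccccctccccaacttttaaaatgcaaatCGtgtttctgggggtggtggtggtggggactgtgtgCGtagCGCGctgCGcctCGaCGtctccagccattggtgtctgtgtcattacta
Eomes: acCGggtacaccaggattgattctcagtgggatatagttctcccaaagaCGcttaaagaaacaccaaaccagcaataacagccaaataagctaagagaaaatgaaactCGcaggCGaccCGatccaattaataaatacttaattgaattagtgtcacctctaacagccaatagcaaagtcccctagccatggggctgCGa
Elf5: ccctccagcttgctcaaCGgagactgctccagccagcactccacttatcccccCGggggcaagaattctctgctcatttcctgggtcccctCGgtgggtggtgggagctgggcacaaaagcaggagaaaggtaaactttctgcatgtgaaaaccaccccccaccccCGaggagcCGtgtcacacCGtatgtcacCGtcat
Ascl2: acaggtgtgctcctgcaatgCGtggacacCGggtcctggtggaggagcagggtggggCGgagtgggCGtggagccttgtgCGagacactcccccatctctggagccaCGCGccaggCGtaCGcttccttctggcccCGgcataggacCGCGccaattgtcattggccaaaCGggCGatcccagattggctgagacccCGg
The Ascl2 window held 15 CG dinucleotides, as many as or more than which were found in 17.8% of the 32851 promoter windows of the same length. The Cdx2 window held 10 (29.3% of windows had at least as many), the Elf5 window 7 (38.3%) and the Eomes window 6 (42.2%), against a median of 4 over all windows. The letters AGATAA, searched on both strands as the motif of GATA factors, occurred in 8.42% of all windows and in none of these. The letters GGAATG, a TEAD-type motif, occurred in 10.7% of all windows and in none of the 4 printed. The methylation and MLL1 occupancy of these windows were not measured in this series.

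Of 4610 wells assigned to the 3 cell types, 4413 were kept, those with 1000 or more genes detected and less than 20% mitochondrial UMIs (unique molecular identifiers, 1 per captured transcript). They comprised 1513 control, 1310 deleted and 1590 inhibited wells with a median of 39644, 34721 and 32890 UMIs. Summed per plate and cell type they gave 9 libraries of 25914860 to 43773924 UMIs. The median mitochondrial share was 3.81 to 4.16% in the deleted libraries, 3.06 to 3.18% in the control libraries and 3.24 to 3.48% in the inhibited libraries. Well barcodes recurred between plates: 1123 were found on at least 2 plates and 137 on all 3. The 15 wells without cells held 43 to 438 UMIs each and not 1 UMI of a member, and a cell type that should lack these genes was not among the wells. Kmt2a itself stood at 50.2, 50.2 and 54.7 CPM (counts scaled to a library of 1000000 UMIs) in the control libraries of plates 1 to 3, at 62.1, 49.9 and 39.2 CPM in the deleted libraries and at 40.6, 43.4 and 46.7 CPM in the inhibited libraries. Its ranges overlapped, so the level of Kmt2a over the whole gene does not check the label of deletion, and the deleted exons are not given in the sources used here.

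Cdx2 and Eomes, the regulators by which trophoblast stem cells are recognised, were present at a few CPM in every library. Cdx2 (chromosome 5, 147300805 to 147307270, GRCm38) stood at 3.33, 3.17 and 2.22 CPM in the control libraries on plates 1 to 3, at 6.09, 3.33 and 5.86 CPM in the deleted libraries and at 5.16, 4.07 and 3.40 CPM in the inhibited libraries. The order of the means was control, inhibited, deleted (2.90 ± 0.600, 4.21 ± 0.888 and 5.10 ± 1.53 CPM, SD, n = 3 plates). Control lay below both other groups without overlap, by a margin of less than 0.1 CPM against the deleted library of plate 2, and deleted and inhibited overlapped. The log2 difference was 0.80 ± 0.35 (SE) for deletion (edgeR, adjusted p = 0.468) and 0.52 ± 0.35 for inhibition (edgeR, adjusted p = 0.720). Eomes (chromosome 9, 118478212 to 118486132), a T-box factor, stood at 5.53, 3.90 and 4.21 CPM in the control libraries, at 5.02, 5.29 and 10.6 CPM in the deleted libraries and at 6.41, 8.50 and 4.37 CPM in the inhibited libraries. All neighbours in its order overlapped, and the deleted library of plate 3 was highest. Its differences were 0.60 ± 0.39 (edgeR, adjusted p = 0.674) and 0.50 ± 0.39 (edgeR, adjusted p = 0.778).

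The 2 GATA factors and TFAP2C act early in the same programme. Gata3 (chromosome 2, 9857078 to 9890034) stood at 7.38, 9.99 and 10.5 CPM in the control libraries, at 19.4, 12.5 and 11.4 CPM in the deleted libraries and at 12.8, 8.96 and 7.14 CPM in the inhibited libraries. Every deleted library was above every control library, by the widest margin on plate 1, and inhibited cells overlapped with both groups. The difference was 0.58 ± 0.28 for deletion (edgeR, adjusted p = 0.519) and -0.01 ± 0.28 for inhibition (edgeR, adjusted p = 0.998). Gata2 (chromosome 6, 88193891 to 88207032) was rarer, at 1.28, 1.46 and 1.13 CPM in the control libraries, 1.51, 1.81 and 2.79 CPM in the deleted libraries and 1.38, 1.44 and 1.83 CPM in the inhibited libraries. Deleted libraries were again above control libraries without overlap, yet the log2 difference of 0.61 ± 0.47 carried an adjusted p of 0.737 (edgeR). Tfap2c (chromosome 2, 172549593 to 172558622) showed the other order: 11.1, 10.9 and 9.47 CPM in the control libraries, 11.7, 12.9 and 11.4 CPM in the deleted libraries and 16.2, 12.5 and 19.1 CPM in the inhibited libraries. Control was lowest without overlap, and deleted and inhibited overlapped. Its difference was 0.59 ± 0.21 for inhibition (edgeR, unadjusted p = 0.0183, adjusted p = 0.444) and 0.19 ± 0.21 for deletion (edgeR, adjusted p = 0.834).

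Tead4, the upstream factor of the programme, was higher than control in the mean of both other groups. Tead4 (chromosome 6, 128224288 to 128300823) stood at 11.3, 11.4 and 8.60 CPM in the control libraries, at 17.5, 13.2 and 15.3 CPM in the deleted libraries and at 17.9, 18.8 and 10.8 CPM in the inhibited libraries. Deleted libraries were above control libraries without overlap, and the inhibited library of plate 3 fell within the control range. The log2 difference was 0.57 ± 0.21 for deletion (edgeR, adjusted p = 0.397) and 0.58 ± 0.21 for inhibition (edgeR, adjusted p = 0.450), and inhibition against deletion gave 0.01 ± 0.21.

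Elf5, a gatekeeper of the trophoblast lineage that is silenced by DNA methylation in embryonic stem cells, had 5 UMIs in 5 wells over all libraries. They were 3 UMIs in control cells, 1 in deleted cells and 1 in inhibited cells, too few for a level or a test. None was left among the 3971 wells thinned to equal depth, which allows a share of up to 0.0755% of wells with a UMI.

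Hand1 and Ascl2 are regulators of the later placenta. Hand1 (chromosome 11, 57828705 to 57832818) stood at 2.97, 4.21 and 1.80 CPM in the control libraries, at 5.35, 3.15 and 4.33 CPM in the deleted libraries and at 1.75, 1.86 and 2.80 CPM in the inhibited libraries. Inhibited libraries were below deleted libraries without overlap, and control overlapped with both. Inhibition against deletion gave -0.99 ± 0.44 (edgeR, unadjusted p = 0.0491, adjusted p = 0.364). Ascl2 (chromosome 7, 142966829 to 142969264) was found in more wells than any other member, at 28.6, 29.1 and 49.8 CPM in the control libraries, 39.1, 25.2 and 39.8 CPM in the deleted libraries and 40.6, 31.5 and 46.1 CPM in the inhibited libraries. Its 3 groups overlapped throughout, and the differences were -0.03 ± 0.16 for deletion (edgeR, adjusted p = 0.974) and 0.16 ± 0.16 for inhibition (edgeR, adjusted p = 0.845).

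Wnt7b (chromosome 15, 85535437 to 85582473) stood at 10.9, 7.69 and 5.30 CPM in the control libraries, at 19.9, 10.8 and 13.4 CPM in the deleted libraries and at 8.80, 12.4 and 6.85 CPM in the inhibited libraries. The deleted library was higher than the control library on each plate, although the control library of plate 1 (10.88 CPM) and the deleted library of plate 2 (10.82 CPM) crossed. The order of means was control, inhibited, deleted (7.96 ± 2.80, 9.35 ± 2.82 and 14.7 ± 4.69 CPM, SD, n = 3 plates). Its deletion difference of 0.92 ± 0.28 was the largest among the members and not called by edgeR (unadjusted p = 0.00826, adjusted p = 0.305), while DESeq2 called it at the same size (adjusted p = 0.0471). Over the alternatives run it ranged from 0.67 to 1.09, with adjusted p from 0.0471 to 0.784 in edgeR or DESeq2. Inhibition against deletion gave -0.65 ± 0.28 (edgeR, adjusted p = 0.352). Genes annotated on the other strand overlap Wnt7b (AU022754), Eomes (Gm33460), Gata3 (Gm13256 and 4930412O13Rik) and Tead4 (Gm21893), and since the counting is not stated to use strand, their reads cannot be told apart from those of the member.

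**Figure D1:**
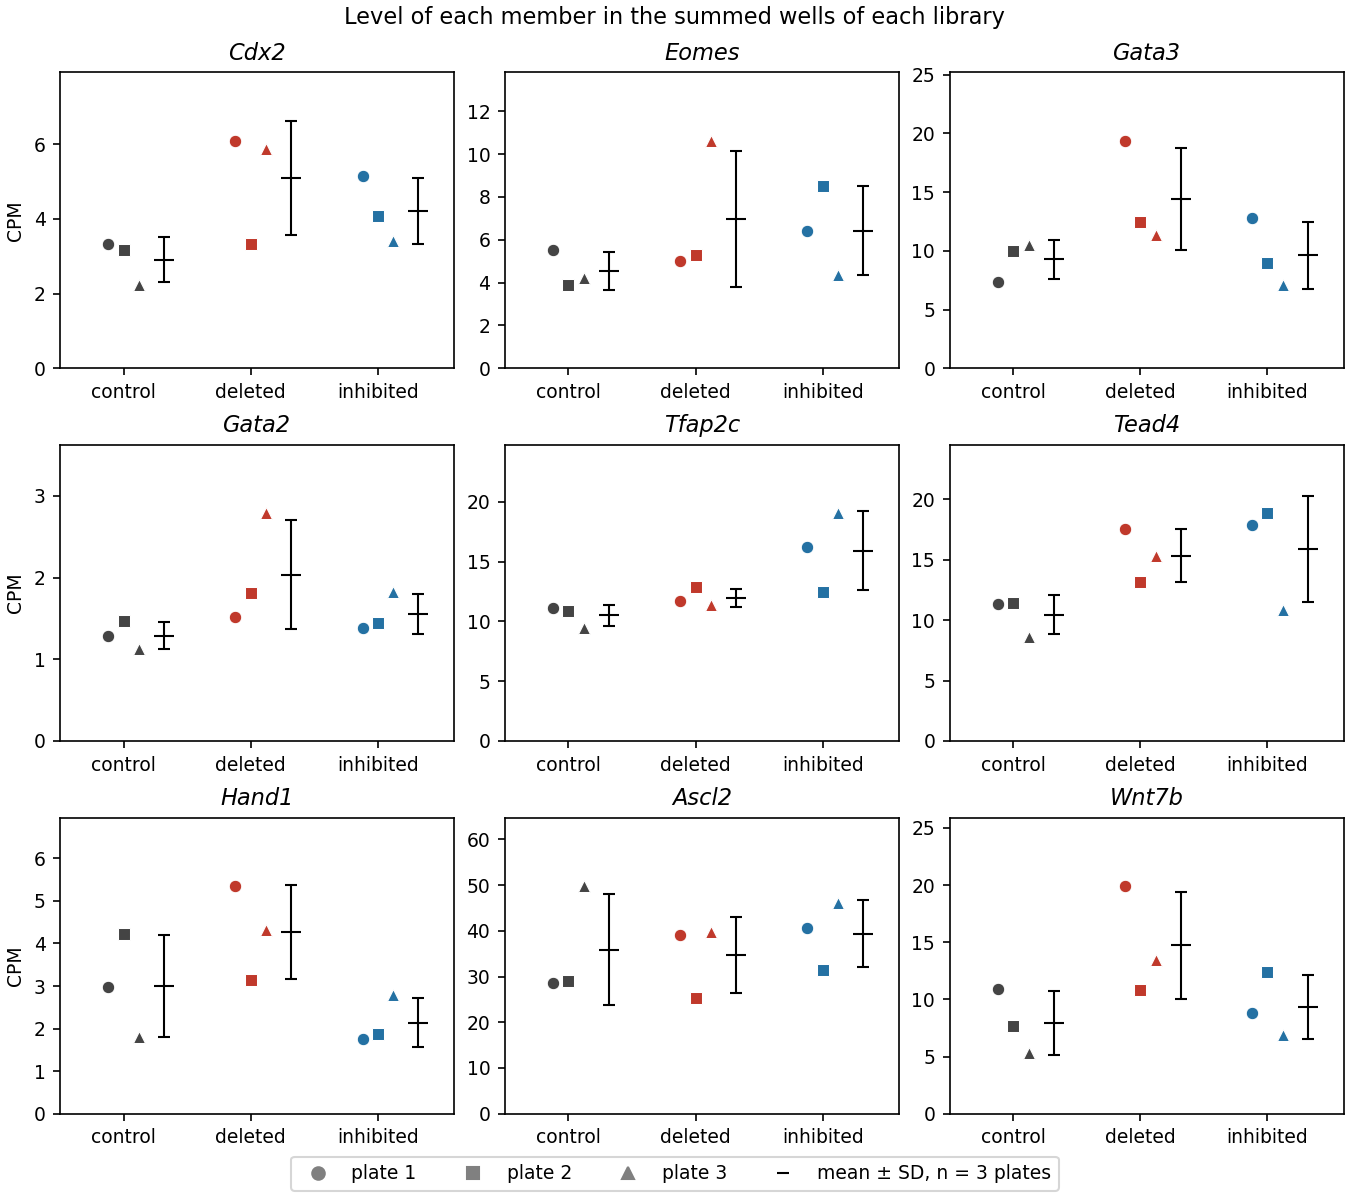
Level of 9 members in CPM (linear axis from 0) in the summed wells of each library; the marker shape gives the plate, and the bar the mean and SD of 3 plates. Gata3, Gata2 and Tead4 in deleted cells lie above all 3 control libraries, and Ascl2 overlaps between all groups.

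Read together, 9 of the 10 members passed the filter on low counts (all but Elf5), and edgeR called 0 of the 9 in any comparison at an adjusted p under 0.05. The background was low: 6 of 17119 genes (0.035%) were called for deletion, 1 (0.00584%) for inhibition and 53 (0.31%) for inhibition against deletion. At an unadjusted p under 0.05, 3 members stood out for deletion (Wnt7b, Cdx2 and Tead4, all higher), where 10.3% of all genes did, 2 for inhibition (Tead4 and Tfap2c, both higher), where 9% did, and 2 for inhibition against deletion (Hand1 and Wnt7b, both lower), where 13.7% did. Of the 9, 8 had a difference above 0 for deletion, with a median of 0.58 against 8.9e-05 over all genes, and 7 for inhibition, with a median of 0.27 against -0.00069. When wells were thinned to equal depth Tfap2c turned to -0.037 and Ascl2 to 0.32 for deletion, and Gata3 to 0.21 and Hand1 to 0.39 for inhibition. The 2 comparisons share their control libraries. Deleted libraries lay above control libraries without overlap for 5 members (Cdx2, Gata3, Gata2, Tfap2c and Tead4; 5.44% of all genes), and inhibited libraries for 2 (Cdx2 and Tfap2c; 5.02%). Inhibited libraries lay below deleted libraries without overlap for 1 (Hand1; 6.38%). On simulated counts the deletion fit recovered 24.7% of genes changed 2-fold and 60.8% of those changed 4-fold (16726 genes run). In the same run 5 unchanged genes were called. The spread was estimated without plate and the simulated libraries held no plate effect. The recovery on the real plates, where the fit blocks on plate, may therefore differ. The changed genes were drawn at random from all genes that passed the filter, not at the members' levels.

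**Figure D2:**
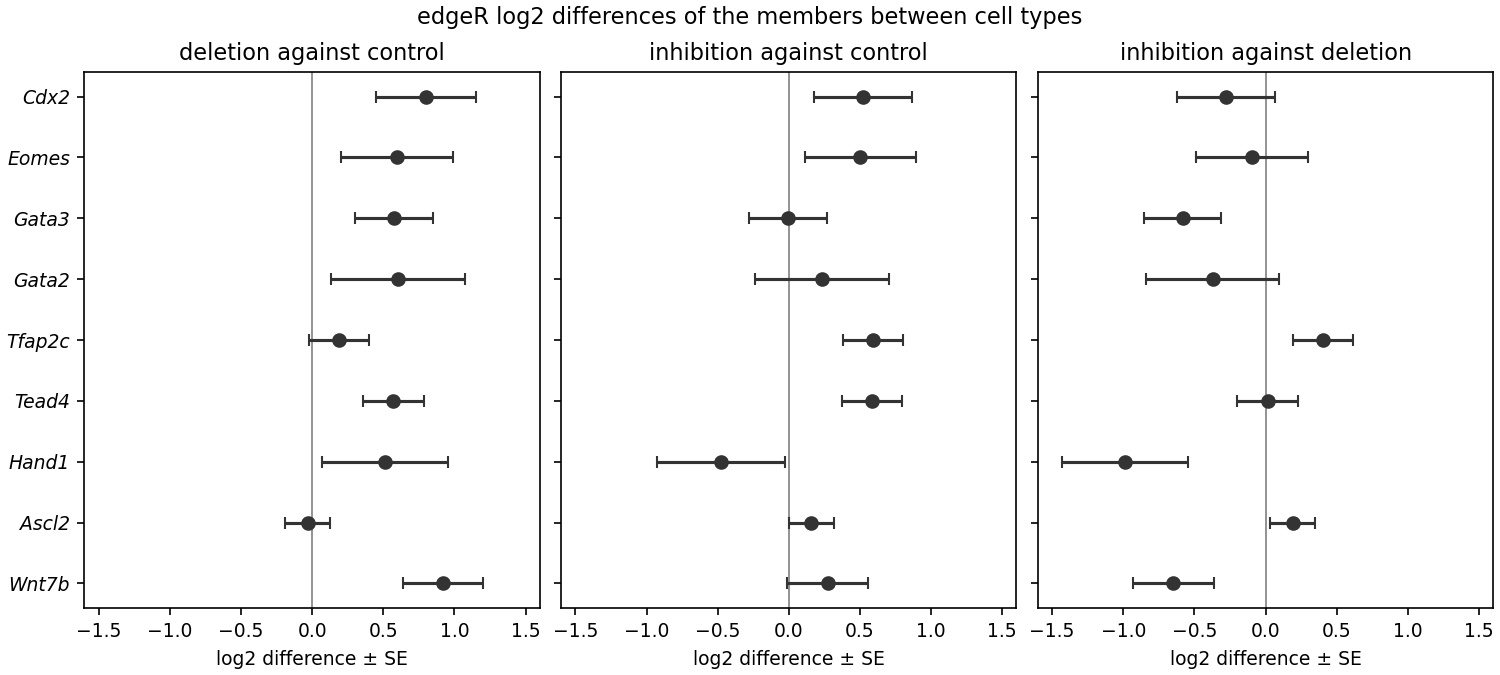
Differences between cell types for 9 members on the log2 scale, from edgeR, with bars of 1 SE; the vertical line marks 0. For deletion 8 of the 9 points lie above 0, with Wnt7b (0.92 ± 0.28) farthest, and 0 of the differences passed an adjusted p of 0.05; at equal depth per well Tfap2c turned to -0.037 and Ascl2 to 0.32.

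The genes that these factors are known to act with were compared in the same fits. Of 18 trophectoderm effector genes (keratins, transporters and other products of the differentiated layer), 15 were above 0 for deletion, with a median of 0.39, and 1 was called: Lgals3, encoding a secreted galectin, rose from 172 ± 7.28 to 276 ± 28.3 CPM (0.68 ± 0.07, edgeR adjusted p = 0.0141). Its call was kept in 4 of 10 alternative fits and lost without any 1 plate (highest adjusted p = 0.555, without plate 2). Krt18 and Krt8, which encode the paired keratins of simple epithelia, had differences of 0.75 ± 0.11 (edgeR, adjusted p = 0.0563) and 0.64 ± 0.13 (edgeR, adjusted p = 0.179). They were 0.29 and 0.21 in wells thinned to equal depth, and Krt18 was 0.42 without the deepest 5% of wells, none of these called. DESeq2, the fit without a filter on low counts and the fit without plate 1 called both higher (Krt18 in edgeR without plate 1, adjusted p = 0.0303). Under inhibition 6 of the 18 were above 0 and 0 were called. In wells thinned to equal depth edgeR called Krt8 (-0.60, adjusted p = 0.000868) and Krt18 (-0.37, adjusted p = 0.0270) lower under inhibition, and DESeq2 called Krt19 lower (-0.50, adjusted p = 0.0482). Inhibition against deletion placed 2 of 18 above 0 and called 4 lower, among them Lgals3 (-0.84 ± 0.07, edgeR adjusted p = 0.00472), Krt18 (-0.85 ± 0.11, edgeR adjusted p = 0.0185) and Krt19 (-1.12 ± 0.16, edgeR adjusted p = 0.0273), with Krt8 as the other. Lgals3 kept this call in 9 of 10 alternative fits, Krt8 in 7, Krt18 in 6 and Krt19 in 3, and all 4 lost it without plate 2 (adjusted p = 0.187 to 0.354). In the TEAD, YAP and Hippo list 15 of 20 were above 0 for deletion and 12 for inhibition, with 0 called in either. Amot, which encodes the angiomotin that holds YAP at cell junctions, differed by 1.04 ± 0.32 for deletion (edgeR, adjusted p = 0.305), and the YAP target Ccn1 by 0.51 ± 0.13 (edgeR, adjusted p = 0.233). Of 9 genes of later trophoblast that could be tested, 7 were above 0 for deletion, 3 for inhibition and 0 called; Tpbpa, the classical spongiotrophoblast marker, was at 0 in every library.

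Around Wnt7b, 11 of 18 other Wnt ligand genes could be tested, 8 above 0 for deletion and 7 for inhibition, and 0 called. Wnt4 stood at 10.5 ± 5.57 CPM in the deleted and 5.86 ± 2.33 CPM in the control libraries (0.74 ± 0.42, edgeR adjusted p = 0.613), and Wnt3 at 7.12 ± 2.41 CPM in the inhibited and 3.77 ± 0.892 CPM in the control libraries (0.90 ± 0.32, edgeR adjusted p = 0.447). Of 18 genes for Wnt receptors and secretion, 11 and 10 were above 0 and 0 called; Wls, whose product carries Wnt proteins to the cell surface, differed by 0.68 ± 0.22 for deletion (edgeR, adjusted p = 0.324). Of 15 tested genes of the nuclear branch and its targets, 7 and 9 were above 0 and 0 called. Dkk1, a secreted Wnt antagonist, stood at 5.66 ± 1.01 CPM in the deleted and 1.47 ± 0.650 CPM in the control libraries (1.99 ± 0.59, edgeR adjusted p = 0.298).

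Markers of other cells were measured beside these. Of 10 embryonic stem cell genes, 5 were above 0 for deletion and 3 for inhibition, with 0 called, and their summed level was 5231 to 6671 CPM in the deleted, 6287 to 6491 CPM in the control and 4666 to 5502 CPM in inhibited libraries. The blood and endothelium list summed to 11.3 to 18.3 CPM in deleted libraries. It summed to 6.46 to 7.44 CPM in control and 3.56 to 6.43 CPM in inhibited libraries. The means of Hand1 had this order of cell types, and so did those of Lgals3, Krt18 and Krt19. Of the 4 tested genes of the blood and endothelium list, 3 were above 0 for deletion and 1 for inhibition, with 0 called. Pecam1 had the smallest unadjusted p of the 4 in each comparison. It stood at 7.65 ± 0.320 CPM in deleted, 4.55 ± 0.364 CPM in control and 2.51 ± 0.457 CPM in inhibited libraries. Whether blood or endothelial cells were present was not tested. Nor was the part of such cells, or of the higher mitochondrial share in deleted cells, in the members' levels. Of 10 primitive endoderm genes, 3 were above 0 for deletion and 0 for inhibition, with 0 called. They summed to 100 to 139 CPM in deleted, 74.4 to 157 CPM in control and 73.6 to 83.7 CPM in inhibited libraries. The germ cell precursor list summed to 29.0 to 76.4, 28.0 to 39.4 and 23.4 to 27.0 CPM in the same order. Genes of the 2-cell-like list summed to 1.26 to 40.7, 0.376 to 21.0 and 0.105 to 4.65 CPM. In these lists 0 genes were called. The feeder fibroblast list summed to at most 5.66 CPM in any library and the primitive streak list to at most 5.05 CPM.

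A level in summed wells does not tell whether more cells held a transcript or the same cells held more of it, so the share of wells with a UMI was compared at equal depth. Each well was thinned at random to 5869 UMIs, and 3971 wells were deep enough (442 were not). At this depth Ascl2 was found in 508 wells (12.8%), Tfap2c in 245 (6.17%), Tead4 in 218 (5.49%), Wnt7b in 184 (4.63%), Gata3 in 161 (4.05%), Eomes in 90 (2.27%), Cdx2 in 83 (2.09%), Hand1 in 59 (1.49%) and Gata2 in 28 (0.705%). Over all UMIs of the wells the shares were 33.8% for Ascl2, 20.7% for Tfap2c and 10.7% for Cdx2.

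Gata3 was found in 2.94, 3.28 and 3.53% of control wells on plates 1 to 3, in 5.61, 4.82 and 4.99% of deleted wells and in 5.31, 3.59 and 3.08% of inhibited wells. Deleted wells were above control wells on all 3 plates, by 1.90 ± 0.680 percentage points (SD, exact sign permutation p = 0.25, the smallest that 3 plates allow). Tead4 was found in 4.49, 4.24 and 5.45% of control wells, 6.68, 6.02 and 6.12% of deleted wells and 5.31, 5.58 and 6.40% of inhibited wells. It was higher on all 3 plates for deletion (1.55 ± 0.787 points) and inhibition (1.03 ± 0.272 points), but this direction turned when wells were thinned to the median depth of 36355 UMIs, with mean shares of 15.4% in control, 14.3% in deleted and 13.1% in inhibited wells. Eomes was found in 1.90, 1.93 and 0.962% of control wells, 1.87, 2.11 and 1.81% of deleted wells and 2.86, 2.99 and 3.55% of inhibited wells. Inhibited wells lay above both other groups on every plate, by 1.54 ± 0.916 points against control and 1.20 ± 0.469 points against deletion (exact sign permutation p = 0.25 each); at the median depth the means were 6.21, 7.24 and 7.75% in control, deleted and inhibited wells, and on plate 1 the inhibited wells (6.99%) were below the deleted wells (9.13%).

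Wnt7b was found in 5.35, 3.47 and 4.17% of control wells, 6.15, 5.12 and 4.54% of deleted wells and 4.69, 4.58 and 3.79% of inhibited wells. The deleted wells were highest on every plate, by 0.939 ± 0.654 points against control (exact sign permutation p = 0.25), and at the median depth the means came within 1 point of each other (13.5, 14.0 and 13.4%), with deleted wells lowest on plate 2 (10.6%). Hand1 was found in 1.60 ± 1.45% of control wells, 2.15 ± 0.593% of deleted wells and 1.09 ± 0.529% of inhibited wells (SD, n = 3 plates), lower under inhibition than deletion on all 3 plates by 1.06 ± 0.869 points. At the median depth the means of Hand1 were 7.19, 7.11 and 3.73% in control, deleted and inhibited wells. Cdx2 was found in 1.54 ± 0.510% of control, 2.85 ± 1.11% of deleted and 1.91 ± 0.0784% of inhibited wells, with deleted above control on 2 of 3 plates. Tfap2c, whose summed level was highest under inhibition, was found in 6.21, 5.68 and 6.74% of control, deleted and inhibited wells on average. For Ascl2 these shares were 12.4, 12.9 and 13.2%. At the median depth Tfap2c was found in 15.3 to 23.6% of wells over the 9 libraries, more often in each inhibited library than in any other. The margin was small: 61 wells with and 211 without it in inhibited cells of plate 1, against 48 and 170 in deleted cells of plate 2. The share of all genes with this order was not computed.

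**Figure D3:**
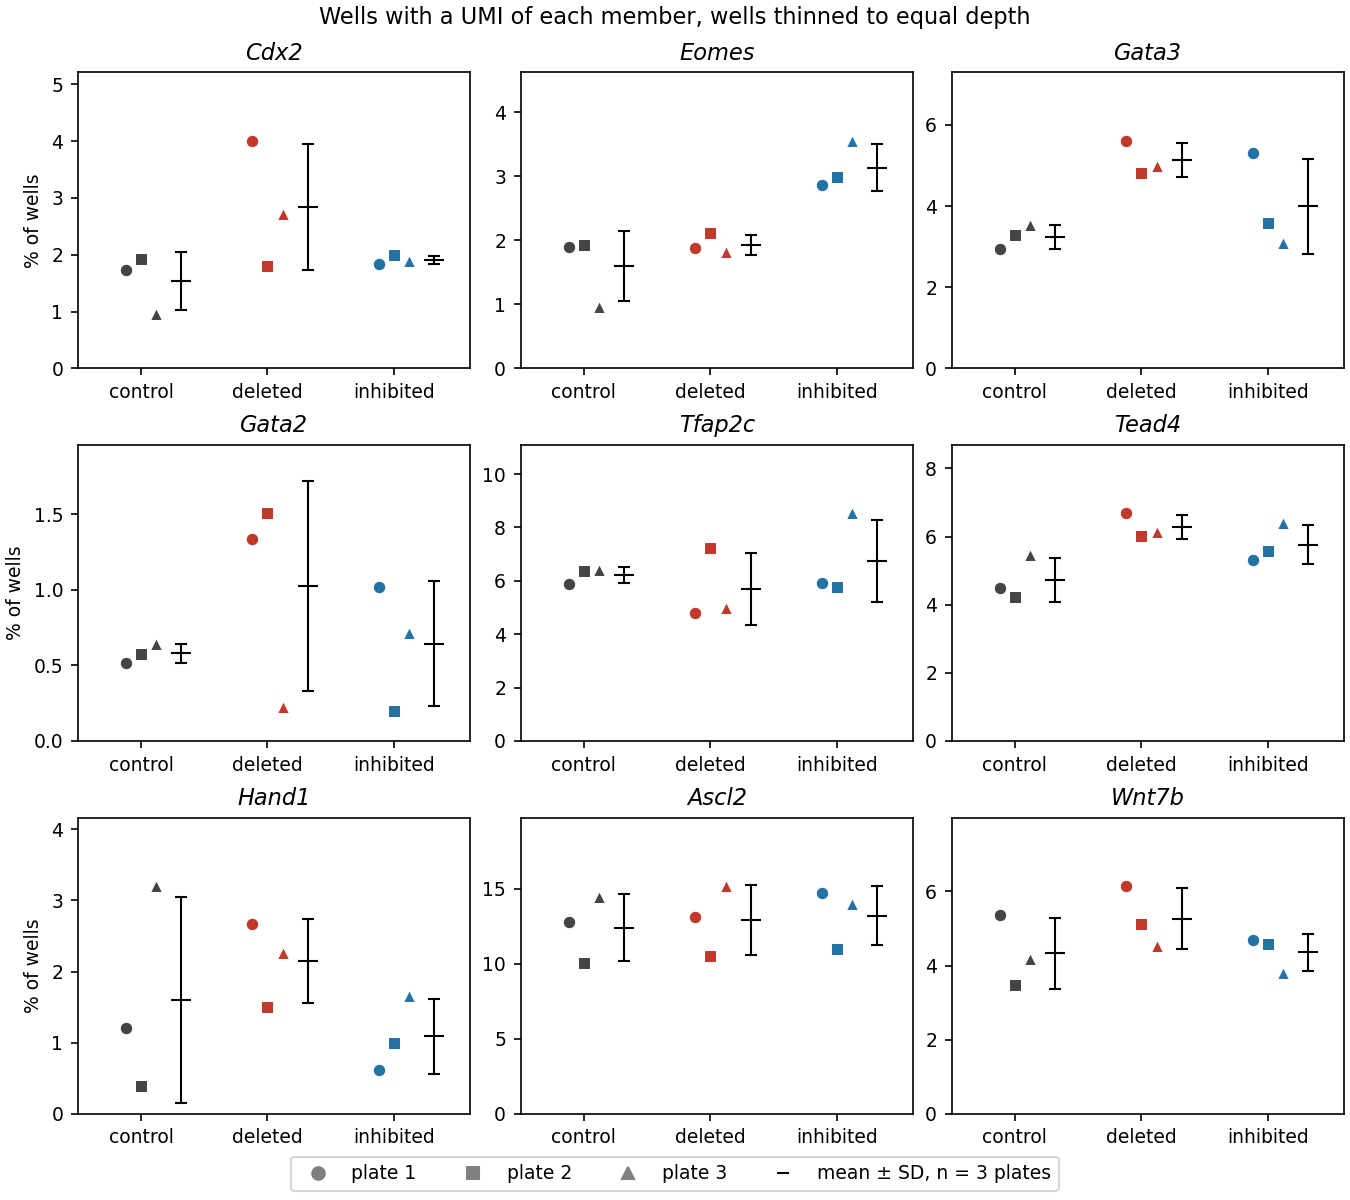
Percent of wells with a UMI of each member after thinning to 5869 UMIs per well (linear axis from 0), by cell type and plate, with the mean and SD of 3 plates. Gata3 in deleted wells (4.82 to 5.61%) lies above control wells (2.94 to 3.53%), and Eomes in inhibited wells (2.86 to 3.55%) above both other groups.

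The share of UMIs held by the wells with most differed between members, and it was not computed for other genes of like count. Gata2 had 528 UMIs in 121 wells, and the 10 wells with most held 47.9% of them. For Eomes these 10 wells held 31.7% of 1919 UMIs, with 219 in 1 deleted well of plate 3, and for Hand1 30.4% of 1014 UMIs, with 73 in 1 deleted well of plate 1. The share was lowest for Ascl2, at 14.6% of 11566 UMIs in 1493 wells, although 1 control well of plate 3 held 520. The highest well was a deleted well for 8 of the 9 members other than Elf5, Ascl2 being the exception. These counts were not scaled for depth, and the 8 top wells held 98940 to 609743 UMIs against a median of 34721 in deleted wells. The share of all genes whose highest well was a deleted well was not computed. The deepest 5% of wells of each library held 25.0% of all UMIs and 16.8 to 31.3% of the UMIs of single members.

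Most wells held none of the regulators or 1 of them. After thinning to 5869 UMIs, 67.5% of wells held no member, 26.2% held 1 and 6.30% held 2 or more: 5.18% of control, 6.97% of deleted and 6.86% of inhibited wells. A control well of plate 2 held 6 of them, namely Cdx2, Eomes, Tfap2c, Tead4, Ascl2 and Wnt7b, and it was the well with most. At the median depth, which 2207 wells reached, 33.0% held 2 or more and 3.08% (68 wells) held 4 or more; the latter had a median of 120685 UMIs before thinning against 95112 for wells with none. The part of depth before thinning, and of wells with 2 cells, in these shares was not tested.

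Whether wells with 1 regulator held the others was described for the 36 pairs of the 9 members. Pairs of other genes were not counted, so whether the members were found together more often than other genes is not known. At 5869 UMIs 26 pairs were more frequent together, and the 95% Clopper-Pearson intervals, which cover counting error only, were apart for 2. Tead4 was found in 13.0% (8.26 to 19.2%) of wells with Gata3 and in 5.17% (4.49 to 5.92%) of wells without it, higher in 8 of 9 libraries, with 21 wells holding both. Wnt7b was found in 18.6% of wells with Hand1, in 11 wells, and in 4.42% of wells without it, and at the median depth the shares were 13.4 and 13.8%. At the median depth 32 of 36 pairs were more frequent together and 5 had intervals apart, each of them with Cdx2 or Wnt7b. Wells with Cdx2 held Tfap2c more often (31.5 against 18.9%), Hand1 more often (13.5 against 5.42%) and Wnt7b more often (23.6 against 12.9%), each in 8 of 9 libraries. Wells with Gata3 held Wnt7b in 20.5 against 12.7% (8 of 9 libraries), and wells with Tead4 in 22.2 against 12.4% (6 of 9 libraries). Leaving out the deepest 5% of wells left the same 5 pairs. Cdx2 and Eomes, partners in trophoblast stem cells, shared 10.1% of Cdx2 wells against 6.80% of wells without Cdx2, with overlapping intervals.

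**Figure D4:**
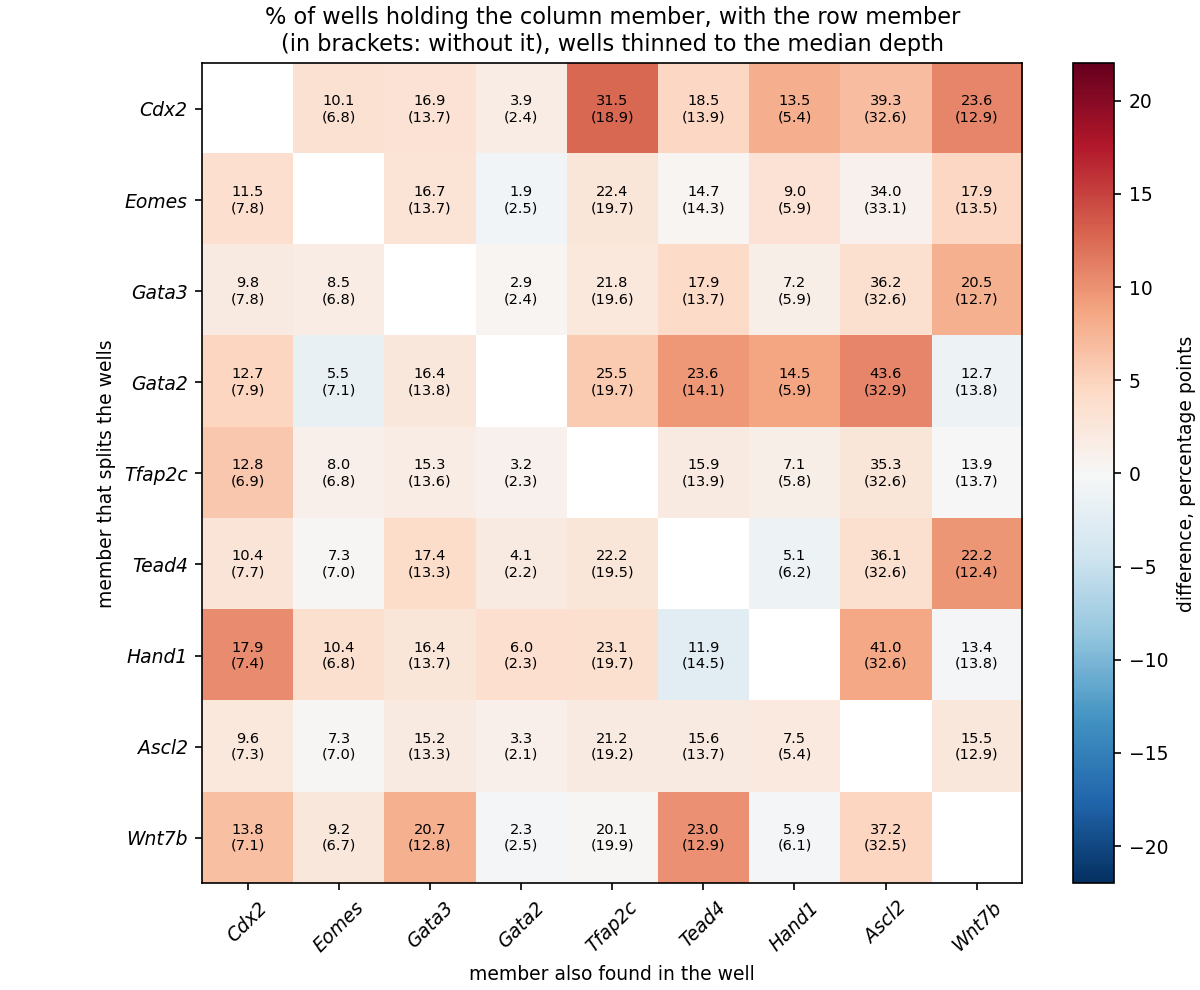
Percent of wells, thinned to the median depth, that held the member of the column among wells with the member of the row and, in brackets, among wells without it; the colour gives the difference in percentage points. The largest differences among the 5 pairs with separate intervals lie in the row of Cdx2, where Tfap2c reaches 31.5 against 18.9% and Wnt7b 23.6 against 12.9%.

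To see what else the wells with a regulator held, counts were summed over wells with and wells without its UMI in each of the 9 libraries, at equal depth and with the regulator itself left out. This was possible for Gata3, Tead4, Wnt7b, Ascl2 and Tfap2c, each found in 1 to 50% of wells of every library. Wells with Gata3, Tead4, Wnt7b or Ascl2 held more Krt8 and Krt18 transcripts, and for Tfap2c these differences were near 0. edgeR called 50 of 7331 genes for Gata3 (0.682%; 36 or 0.491% higher), 47 of 7347 for Tead4 (0.64%; 31 or 0.422% higher), 37 of 7372 for Wnt7b (0.502%; 25 or 0.339% higher), 49 of 7522 for Ascl2 (0.651%; 39 or 0.518% higher) and 0 of 7331 for Tfap2c (0%), where 416 had an unadjusted p under 0.05, DESeq2 called 7 and limma voom 0. Of 11 trophectoderm effector genes that could be tested, 5 were called higher for Gata3 (Krt8, Krt18, Lrp2, Id2 and Lgals3), 4 for Tead4 (Krt8, Krt18, Lrp2 and Lgals3), 4 for Wnt7b (Krt8, Krt18, Id2 and Lgals3), 5 for Ascl2 (Krt8, Krt18, Krt19, Lrp2 and Id2) and 0 for Tfap2c. Several of these calls were lost in many of 12 alternative settings: Id2 for Wnt7b and Krt19 for Ascl2 were called in 4, Lrp2 in 5 for Tead4, 6 for Ascl2 and 7 for Gata3, and Id2 for Gata3 in 8. The median difference of the 11 effector genes was 0.65 for Gata3, 0.50 for Tead4, 0.63 for Wnt7b, 0.55 for Ascl2 and -0.05 for Tfap2c. Over all genes the medians were -0.07 to -0.00064. Cldn4 and Klf5 of the effector list were called in 0 alternative settings for each of the 5 members. For Gata3 they ranged from -0.079 to 0.32 and from -0.17 to 0.31. Of 4 primitive endoderm genes tested in each split, 0 were called. Their medians were 0.27 for Gata3, 0.35 for Tead4, 0.12 for Wnt7b, 0.075 for Ascl2 and -0.14 for Tfap2c. The cell type of these wells was not tested. The splits share wells and libraries, and the difference between them was not tested. Leaving out 1 plate lowered the calls by over 1.5 times: for Gata3 to 20 without plate 2 and 28 without plate 3, for Tead4 to 26 without plate 2 and 26 without plate 3, for Wnt7b to 13 without plate 1 and 18 without plate 2, and for Ascl2 to 18 without plate 2 and 20 without plate 3.

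Krt18 stood at 1475 ± 694 CPM in wells with Tead4 (308 to 2533 CPM over the 9 libraries) and at 652 ± 169 CPM in wells without it, higher in 8 of 9 libraries (1.08 ± 0.10, edgeR adjusted p = 1.45e-15). For Wnt7b it was 1411 ± 498 CPM (745 to 2005 CPM) against 663 ± 175 CPM, higher in 9 of 9 libraries (1.05 ± 0.09, edgeR adjusted p = 7.99e-19). For Gata3 it was 1640 ± 1077 against 659 ± 164 CPM in 7 of 9 libraries (1.07 ± 0.11, edgeR adjusted p = 7.37e-14), and for Ascl2 1159 ± 552 against 628 ± 176 CPM in 8 of 9 libraries (0.85 ± 0.11, edgeR adjusted p = 1.75e-06). The spread between libraries was wider in wells with a UMI than in wells without, and limma voom with a weight for each group gave adjusted p of 1.17e-05, 8.13e-06, 0.0169 and 4.86e-05 for Tead4, Wnt7b, Gata3 and Ascl2. DESeq2 did not call Krt18 for Gata3 (adjusted p = 0.0781), and without plate 2 the difference there was 0.52 in place of 1.07. An exact permutation of the signs of the 9 library differences, added after the data were seen and run for 8 genes in 5 splits (40 tests), gave unadjusted p = 0.00781 for Tead4, 0.00391 for Wnt7b, 0.043 for Gata3 and 0.0117 for Ascl2, where 0.00391 is the smallest possible. Adjusted over the 40 exact permutation tests these were 0.0240, 0.0174, 0.0661 and 0.0276, so Krt18 with Gata3 did not pass 0.05. The 8 genes were those of the effector and embryonic stem cell lists that edgeR had called in these splits. Their permutation p-values are therefore not independent of those calls, and the adjustment does not cover all genes tested. The signs were flipped as if the 9 libraries were independent, although they came from 3 plates, which alone allow no exact p below 0.25. The edgeR p-values of the splits also rest on 9 libraries. With wells summed per plate (3 pairs), edgeR called 54 of 11129 genes for Gata3 and 32 of 10938 for Tead4. It called 34 of 11221 for Wnt7b, 37 of 11145 for Ascl2 and 0 of 10975 for Tfap2c. With Tfap2c Krt18 stood at 741 ± 437 against 695 ± 183 CPM, higher in 4 of 9 libraries (0.02 ± 0.12, edgeR adjusted p = 0.988; unadjusted exact permutation p = 0.77).

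Krt8 followed the same pattern, at 446 ± 220 against 201 ± 58.6 CPM for Wnt7b (1.09 ± 0.13, edgeR adjusted p = 7.07e-10) and 434 ± 276 against 203 ± 57.0 CPM for Gata3 (0.99 ± 0.14, edgeR adjusted p = 2.08e-08). The smallest difference among the 4 was that for Ascl2, 311 ± 124 against 198 ± 60.1 CPM (0.65 ± 0.12, edgeR adjusted p = 0.000651), which DESeq2 did not call (adjusted p = 0.0527). Unadjusted exact permutation p-values for Krt8 were 0.00391 for Gata3, 0.0195 for Tead4, 0.00781 for Wnt7b and 0.0156 for Ascl2 (0.0174, 0.0340, 0.0240 and 0.0329 adjusted). The opposite direction was seen in Dppa5a, which encodes an RNA-binding protein found in pluripotent cells. It was lower in wells with Tead4 (3659 ± 877 against 4976 ± 797 CPM, -0.47 ± 0.05, edgeR adjusted p = 9.27e-11) and with Wnt7b (3420 ± 686 against 4976 ± 830 CPM, -0.56 ± 0.07, edgeR adjusted p = 3.72e-10). It was also called lower for Gata3 (-0.33 ± 0.06) and for Ascl2 (-0.21 ± 0.05, edgeR adjusted p = 0.00966 and DESeq2 adjusted p = 0.0522). These calls were kept in 9 and 6 of 12 alternative settings. For Tfap2c Dppa5a was not called, yet it was lower in 8 of 9 libraries (mean -0.28, adjusted exact permutation p = 0.122). Over the 12 alternative settings its difference there was -0.42 to -0.065, called in 1. Tdgf1, encoding the Nodal co-receptor Cripto, was called lower for Wnt7b (-0.69 ± 0.15) and Ascl2 (-0.37 ± 0.08). These calls were kept in 5 and 7 of 12 alternative settings, and neither was kept at the median depth. For Tfap2c Tdgf1 was called in 0 of 12 alternative settings, although lower in 7 of 9 libraries (adjusted exact permutation p = 0.0329). The other 8 tested embryonic stem cell genes were not called in any of the 5 splits.

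**Figure D5:**
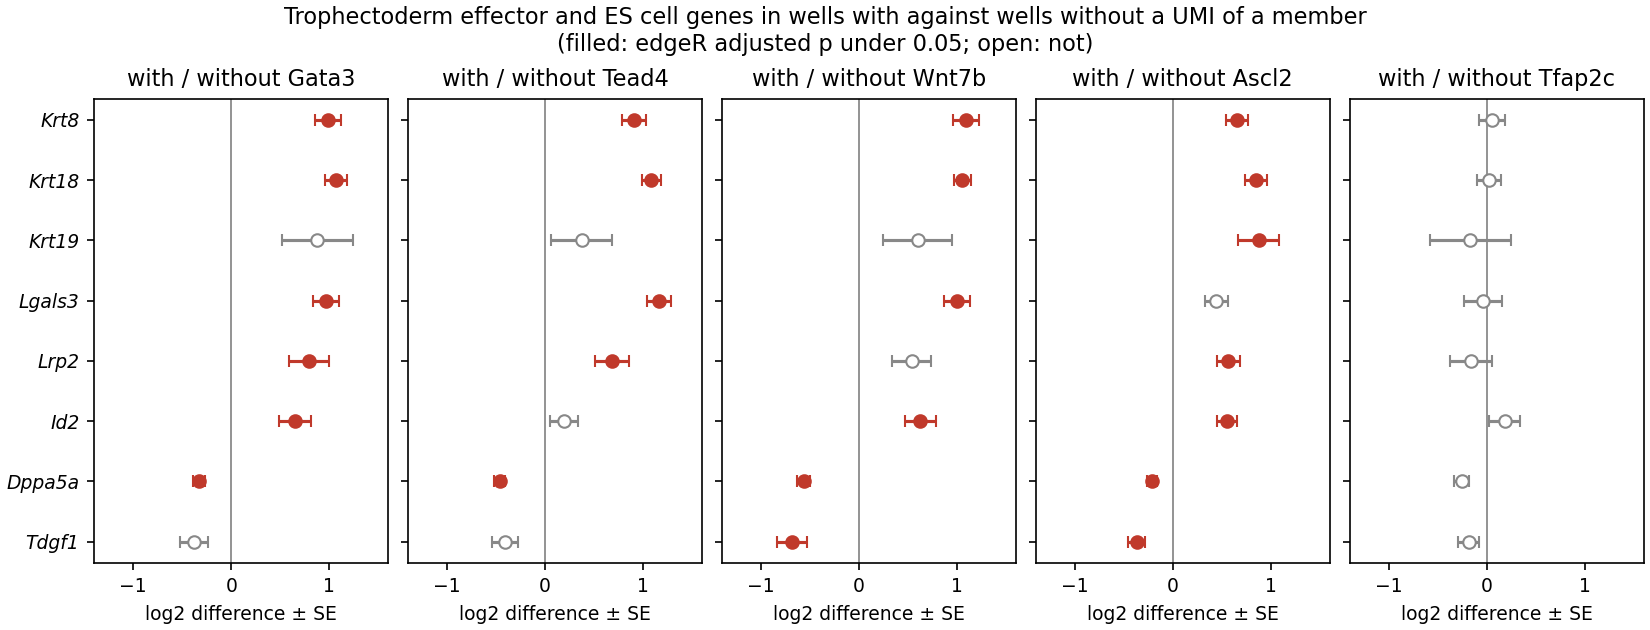
Differences on the log2 scale (edgeR, bars of 1 SE) between wells with and wells without a UMI of Gata3, Tead4, Wnt7b, Ascl2 or Tfap2c, for 6 trophectoderm effector genes and 2 embryonic stem cell genes; filled points passed an adjusted p of 0.05 and open points did not. Krt8 and Krt18 are filled to the right of 0 in 4 panels and near 0 for Tfap2c, and Dppa5a is filled to the left in the same 4. Dppa5a was not called for Tfap2c but was lower in 8 of 9 libraries.

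Wells with a regulator differed in depth before thinning, and the direction was not the same for all. The median was 61179 UMIs with Gata3 against 43118 without it and 53817 with Tead4 against 43282, but 34033.5 with Wnt7b against 44587 and 38761.5 with Ascl2 against 44673. At the median depth, where these gaps were smaller (99750 against 95271 UMIs for Gata3), the calls were 112 of 10929 genes for Gata3 (1.02%), 120 of 10946 for Tead4 (1.1%) and 73 of 11017 for Wnt7b (0.663%). For Ascl2 they fell to 10 of 11225 (0.0891%), with Krt18 no longer called (0.49 ± 0.13, edgeR adjusted p = 0.236) nor Krt8 (0.43 ± 0.12, edgeR adjusted p = 0.242), Krt19 or Lrp2, and with Id2 as the 1 effector gene called. At this depth Dppa5a was not called for Gata3 (-0.14, edgeR adjusted p = 0.500) or Ascl2 (-0.21, edgeR adjusted p = 0.0856). For Tead4 further calls were Krt7 (1.12 ± 0.24, edgeR adjusted p = 0.0180), the YAP and TEAD targets Ccn2 (0.82 ± 0.14, edgeR adjusted p = 0.00230) and Ccn1 (0.54 ± 0.11, edgeR adjusted p = 0.0163), and the angiomotin-like gene Amotl1 (0.49 ± 0.11, edgeR adjusted p = 0.0255). The rarer regulators could be split at this depth too. Hand1 wells had more Krt18 (0.89 ± 0.17, edgeR adjusted p = 0.0436) and 6 of 10713 genes called (0.056%), and Cdx2 wells had less Dppa5a (-0.49 ± 0.09, edgeR adjusted p = 0.0356) with 3 of 10740 called (0.0279%). For Cdx2 the Krt18 difference was 0.47 ± 0.12 (edgeR, adjusted p = 0.252), and for Eomes, with 1 of 10682 called (0.00936%), it was -0.10 (edgeR, adjusted p = 0.987). Gata2 gave 5 of 10509 calls (0.0476%) and Tfap2c 4 of 11104 (0.036%).

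In these splits 0 ordered pairs of members were called by edgeR. The nearest was Gata3 in wells with Tead4, at 30.0 ± 25.1 against 9.70 ± 2.94 CPM and higher in 8 of 9 libraries (1.47 ± 0.46, edgeR adjusted p = 0.150), which limma voom called (1.64, adjusted p = 0.0271). In the other direction Tead4 in wells with Gata3 stood at 28.4 ± 15.5 against 14.1 ± 3.38 CPM (0.96 ± 0.50, edgeR adjusted p = 0.666). Gata3 in wells with Wnt7b differed by 1.48 ± 0.53 (edgeR, adjusted p = 0.325), and by 1.11 ± 0.22 over unthinned wells (edgeR, adjusted p = 0.0309). On simulated counts the Tead4 split recovered 67.4% of genes changed 2-fold and 97.8% of those changed 4-fold (7170 genes run). In the same run 10 unchanged genes were called, and the simulated libraries held no plate or library effect. The changed genes were drawn at random from all genes that passed the filter. These shares therefore do not give the recovery for genes as sparse as the members.

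For the 3 members found in at least 5% of thinned wells, the genes most alike across wells were those with the highest mean within-library Pearson correlation of log2(CPM + 1) over 3971 wells and 7063 genes (sparse counts). All of these correlations were weak. For Tead4 they were Anxa2 (mean r 0.096), Krt18 (0.091), Fxyd6 (0.087), Tpm4 (0.080) and Thbs1 (0.079). For Ascl2 they were Lgals1 (0.091), 2200002D01Rik (0.085), Fabp3-ps1 (0.084), S100a11 (0.082) and S100a6 (0.082), and for Tfap2c they were Morc4 (0.076), Pdcd6ip (0.065), Hus1, Calcoco2 and Rpusd3 (0.060 each). No keratin was among the 5 of Tfap2c or Ascl2.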

How the data were processed

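Single mouse embryonic stem cells were profiled on 3 plates, each with 3 cell types. Per the labels' protocols, SMARTScribe reagents and a barcoded oligonucleotide served for reverse transcription and an altered Nextera XT procedure for the libraries. The deposited tables hold raw UMI counts of each gene in each well, which the authors left without normalisation, and the authors' report of each plate, which is deposited beside the counts, gives the cell type of each well. The submitters' processing notes name mm10 as the genome and STAR 2.5.2b, Subread 1.4.6-p1 and featureCounts as tools; the sources used here do not give the handling of strand or of multiply fitting reads. Identifiers were named from GENCODE M21 (28641 of 29267; 626 unnamed). Spike-in and reporter sequences took 0.615 to 0.742% of UMIs per plate and were left out.

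Counts of kept wells were summed per plate and cell type into 9 libraries and tested with edgeR 4.0.16 (R 4.3.3; TMM, filterByExpr, quasi-likelihood F test) with plate as a block, Benjamini-Hochberg adjustment over all genes and a threshold of 0.05. CPM is the count scaled to a TMM-adjusted library of 1000000 UMIs. All 3 cell types sat on every plate, and the check of the pairing by plate gave correlations between 0.126 and 0.210 for the 9 library pairs that share a plate, and between -0.125 and -0.00668 for the 18 that do not (each library taken as its deviation from the mean of its cell type). Shares of wells were compared after thinning to 5869 UMIs, by an exact two-sided permutation of signs over 3 plates. Wells with and without a UMI were compared over 9 pairs of sums with the library as a block. DESeq2 1.42.0 and limma 3.58.1 (voom) served as alternatives. The fits were tested on simulated data without plate effects. No doublet caller was run.

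The members and gene lists were chosen with earlier results of these data known. By rule, the text names the 10 members, up to 3 genes of each other list with the smallest unadjusted p, the 5 genes most alike for members found in at least 5% of thinned wells, and Kmt2a; other genes (the called effector genes beyond 3 in a list, Krt7 and those in the closing section) were chosen after their values were seen. Thinning to the median depth, voom, co-detection without the deepest wells and the exact permutation over 9 libraries were added after seeing the data.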

Additional observations from a re-analysis of the deposited data

How the results depend on the processing

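For deletion edgeR called 6 genes, DESeq2 325, the fit without a filter on low counts 179, only the 2 cell types compared 3, wells thinned to equal depth 69 and plates left out in turn 1 to 5. For inhibition the 1 call became 277, 108, 32 and 75 in the same order, and 0 with any plate left out. For inhibition against deletion 53 became 723, 383, 10 and 170, with 31 without the deepest 5% of wells and 0 to 73 with plates left out (0 without plate 2, 5 without plate 1, 73 without plate 3). With no replicate block (plate left out of the model) the counts were 0, 0 and 3 in edgeR, where 1035 and 851 genes had an unadjusted p under 0.05 for deletion and inhibition; the block changed no call of a member between cell types. Among the ordered pairs of members that could be tested in each setting, the 0 called became 1 over unthinned wells and 1 with voom. The 18 calls of effector genes became 6 where a well needed at least 2 UMIs of the regulator. That setting and the fit without a filter shift the median of all genes by -0.10 to -0.51, and most of their calls are lower. Calls per split ranged over the settings run from 15 to 238 for Gata3, 26 to 249 for Tead4, 11 to 272 for Wnt7b, 5 to 74 for Ascl2 and 0 to 107 for Tfap2c, against 50, 47, 37, 49 and 0.

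Of the member differences 247 kept their direction and side of the threshold, 1 passed it (Wnt7b for deletion in DESeq2) and 19 turned. Thinning gave -0.037 (Tfap2c) and 0.32 (Ascl2) for deletion, 0.21 (Gata3) and 0.39 (Hand1) for inhibition, and 0.78 (Eomes) for inhibition against deletion. Without the deepest 5% of wells Ascl2 gave 0.25 for deletion, Gata3 0.067 for inhibition and Tead4 -0.20 between the treatments. Gata3 for inhibition was 0.053 with no replicate block and 0.021 with only the 2 cell types. Leaving out each plate in turn gave -0.26 to 0.12 for Ascl2 under deletion, -0.36 to 0.29 for Gata3 and -0.0052 to 0.30 for Ascl2 under inhibition, and -0.52 to 0.010 for Cdx2, -0.53 to 0.53 for Eomes and -0.23 to 0.27 for Tead4 between the treatments. In wells with Tfap2c, Krt8 turned to -0.10 unthinned, -0.61 with at least 2 UMIs, -0.13 at the median depth and -0.12 without a filter, and Krt18 to -0.11, -0.63, -0.21 and -0.16, to -0.079 without the deepest wells and -0.0074 in DESeq2, with -0.18 to 0.18 when plates were left out; Id2 in wells with Wnt7b turned to -0.10 with at least 2 UMIs. The cause was not tested. Share differences turned direction in 8 of 81 fits that left out a plate and in 24 of 135 others. Depth limits the rarer members: Gata2 was found in 28 thinned wells and Elf5 in 0.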

Other observations

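Over all genes tested, 8 were called in the same direction in all 4 splits with calls (Gata3, Tead4, Wnt7b and Ascl2). Of these, Krt8, Krt18 and Dppa5a belong to the lists above. The 8 were chosen here after their values were seen. Their calls are not independent, since the splits share wells and libraries. Higher in wells with the regulator were Krt8, Krt18, Ahnak, encoding a large scaffold protein of the cell cortex, Lgals1, encoding galectin-1, and Tpm1, encoding a tropomyosin of the actin cytoskeleton. Lower were Dppa5a, Chchd10, encoding a mitochondrial protein, and Mkrn1, encoding a ubiquitin ligase. A further 13 genes were called higher in 3 of the splits.

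Several limits bear on these values. A well with a UMI of a sparse transcript is a noisy marker, since at 5869 UMIs per well most wells with a transcript are missed: Ascl2 was found in 12.8% of thinned wells and in 33.8% of all kept wells. Wells with 2 cells were not identified. The 3 plates allow no exact p below 0.25 for a difference in shares.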
